A study of Mus musculus with 56 samples.

Results

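The transcript program of the mouse heart under nighttime-restricted feeding (NRF) was read from the 28 NRF libraries among the 56 of the series. They hold the daily order in which genes of the heart reach their peak when food comes in the active phase of this nocturnal animal. The libraries were chosen by their labels alone, as all hearts of the NRF regimen. The mice were C57BL/6J females (an inbred strain, no engineered allele), 9 weeks old, on a cycle of 12 h light and 12 h dark. After 7 days of acclimatisation with food at all hours, they ate normal chow only in the dark phase for 7 days. Hearts were taken every 4 h from zeitgeber time (ZT, hours after lights on) ZT0 to ZT24, with 4 replicates at each of the 7 times, so the NRF mice could eat between ZT12 and ZT24. The other 28 libraries came from mice of the same strain, sex and age fed only in the light phase (daytime-restricted feeding, DRF) and entered the tests of a difference of rhythm and the mean level that chose the genes tested. The labels number the replicates without saying how animals relate to libraries, so p-values measure the spread between these libraries.

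Circadian clocks in heart cells are built on a transcriptional loop. The activators CLOCK, NPAS2 and BMAL1 (encoded by Arntl) bind E-boxes and drive the Per and Cry genes, whose proteins inhibit them, while the repressors REV-ERB alpha and beta (Nr1d1 and Nr1d2) and the ROR activators compete for ROR elements and return timing to Arntl, and the PAR bZIP factors (Dbp, Tef, Hlf) and their repressor Nfil3 act on D-boxes. Output of this clock in the heart, together with the daily swing between feeding and fasting, is known to bear on fuel choice, ion channels and protein turnover.

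Recovered reads ranged from 30.1 to 48.3 M (mega) per NRF library, with a median of 38.1 M, and mitochondrially encoded genes took 16.5 to 22.7% of them. Markers of cardiac muscle were abundant throughout, with a summed level of 10840 to 13690 TPM (reads per base of exon, with an equal total for each library). Tissue composition was less even. Summed atrial markers ran from 129 to 4364 TPM and blood cell markers from 1672 to 42710 TPM, and 0 of 5 genes of either list was rhythmic. In bulk tissue, fewer cells of a type and less RNA per cell cannot be told apart. One library stood apart in time. The library labelled ZT8 replicate 1 was read as ZT4.4 by 18 clock genes and as ZT23.1 by 284 other strongly rhythmic genes, when each library was timed against the profile of the remaining ones. ZT4 replicate 1 was read 1.4 h early by clock genes and 3.4 h early by the others, and the other 26 libraries lay within 1.8 h of their label by both measures. The labels were kept, and values without these libraries are given where they matter.

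**Figure D1:**
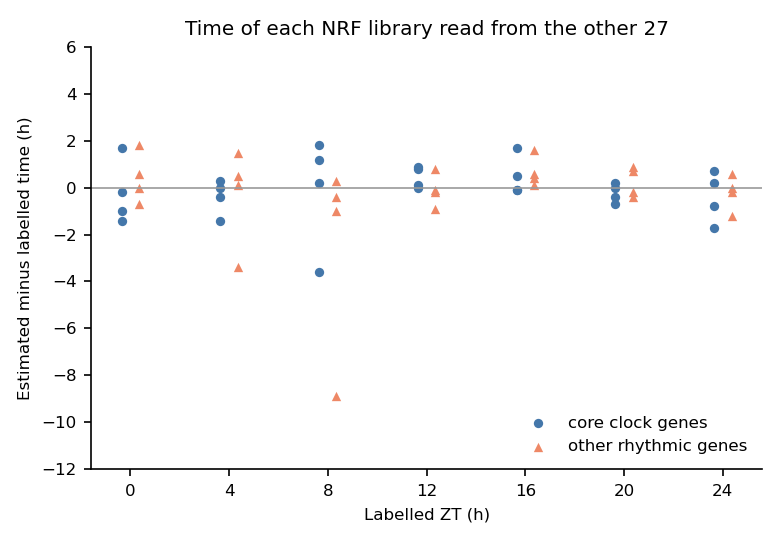
Estimated minus labelled time in hours for each of the 28 NRF libraries, by labelled ZT, from clock genes (circles) and from other rhythmic genes (triangles). ZT8 replicate 1 lies at -3.6 h by clock genes and -8.9 h by the others, and the remaining libraries lie near 0 except ZT4 replicate 1 at -3.4 h by the other genes.

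The 24 h rhythm was widespread and shallow in the night-fed heart. Of 13878 genes tested, 5173 (37.3%) were rhythmic at an adjusted p under 0.05 in a limma F test of a 24 h cosine and sine, and 6521 had an unadjusted p under 0.05. The count was 2835 (20.4%) without replicate 2 of every time and 3167 (22.8%) without replicate 3. The median amplitude of the rhythmic genes, which is the distance from the daily mean to the fitted peak, was 0.18 on the log2(TPM + 1) scale, against 0.10 for all genes tested. A fitted ratio of peak to trough of at least 2 was reached by 214 of them and a ratio of at least 4 by 31. The 4 h windows from ZT0 onward held the peaks of 864, 1045, 1196, 880, 552 and 636 genes. With all libraries and an equal TPM sum, ZT8 to ZT12 held the most peaks and ZT16 to ZT20 the fewest. The order of the windows was not stable. Without replicate 4 of every time ZT12 to ZT16 held the most (846) and ZT4 to ZT8 the fewest (371), and ZT4 to ZT8 exceeded ZT8 to ZT12 without replicate 3 (683 and 593 genes), without ZT24 (924 and 796), without replicate 1 of ZT4 and ZT8 (1863 and 1658), with the values as deposited (1309 and 1245) and with voom weights (1193 and 1183). Of the genes of at least 2-fold, 71 peaked between ZT12 and ZT16 and 13 between ZT20 and ZT24.

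In all, 3105 rhythmic genes (60.02%) peaked in the light phase and 2068 in the dark phase. That split moved with the scaling and with the libraries used. When libraries were scaled by the median ratio of genes in place of an equal TPM sum, the number of rhythmic genes was 6451, the windows held 1068, 1069, 1079, 1047, 948 and 1240 genes, and 49.85% peaked in the light phase. Under an equal sum, the median gene of a library differed from the other libraries by -0.13 to 0.24 (log2), with ZT means from -0.0024 at ZT24 to 0.075 at ZT12. Without ZT8 replicate 1 the share in the light phase was 62.6%, without that library and ZT4 replicate 1 it was 69.1%, and without replicate 4 of every time it was 42.3%. The standard error of a peak time had a median of 0.91 h, so that neighbouring windows shade into each other. The hearts taken at either end of the day were close. Over the rhythmic genes the median absolute difference between ZT24 and ZT0 was 0.09 (log2), against 0.24 between ZT12 and ZT0, and 4166 genes had ZT24 nearer to ZT0 than ZT12 was.

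**Figure D2:**
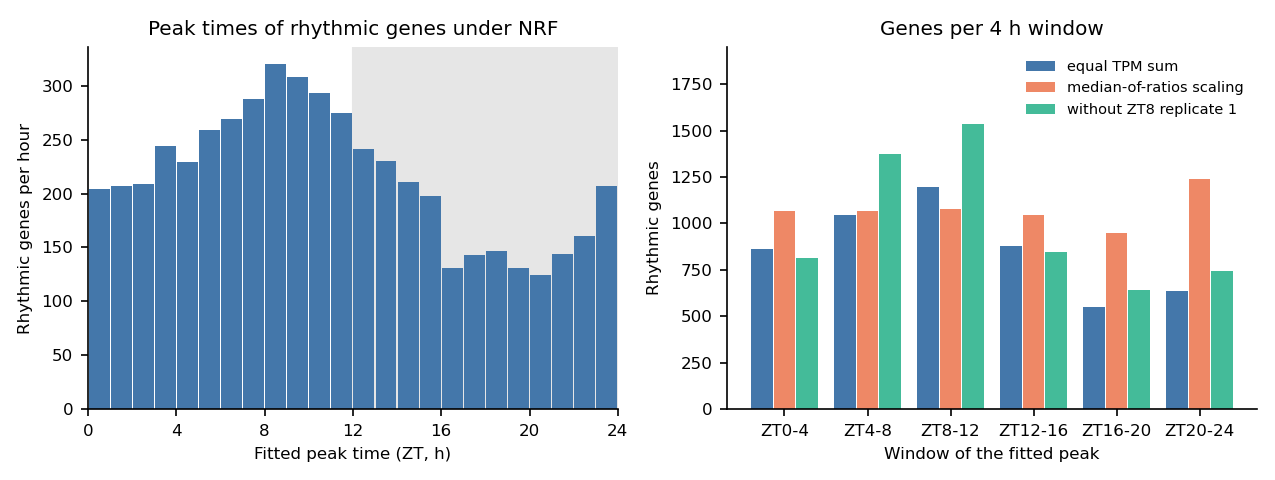
Left, number of rhythmic genes by fitted peak hour in the 28 NRF libraries. Right, genes per 4 h window with an equal TPM sum, with median-of-ratios scaling and without ZT8 replicate 1; with an equal sum the windows held between 552 genes (ZT16 to ZT20) and 1196 genes (ZT8 to ZT12).

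The clock itself was rhythmic in full. All 19 core clock genes tested passed the test, against 37.3% of all genes, with a median amplitude of 1.15 (log2) and with the same 19 called under median-of-ratios scaling and without ZT8 replicate 1. Among the activators, Arntl measured 14.7, 11.8, 11.5 and 11.3 TPM at ZT0 and 0.478, 0.202, 0.139 and 0.254 TPM at ZT12. Every ZT0 library was thus far above every ZT12 library, and at ZT24 the level was back at 12.2 ± 1.69 TPM (SD, n = 4). Its fitted peak fell at ZT0.86 ± 0.20 h (SE) with a 10.6-fold peak-to-trough ratio (limma adjusted p = 1.2e-14). Clock peaked with it at ZT0.54 ± 0.33 h, with a shallow 2.03-fold ratio, and Npas2 followed at ZT2.34 ± 0.29 h with a 4.95-fold ratio.

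The RefSeq promoter of Arntl (GRCm38.p6, chr7:113207215-113207464, plus strand) is shown because it holds a pair of matches to TNGGTCA. This short word was used here to look for ROR elements. A match to it need not be a site that REV-ERB or ROR proteins bind, and binding was not tested. The 250 bases before the transcription start run 5′ to 3′ on the strand of the gene, with matches to TNGGTCA on either strand in capitals.
Arntl: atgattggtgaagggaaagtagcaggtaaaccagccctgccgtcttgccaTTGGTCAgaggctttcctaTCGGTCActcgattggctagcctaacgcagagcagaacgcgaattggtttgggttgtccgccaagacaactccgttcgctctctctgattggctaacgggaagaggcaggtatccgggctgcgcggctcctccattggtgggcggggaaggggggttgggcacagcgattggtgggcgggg
A match to this motif lies in 8.06% of the 9910 promoters that could be matched by symbol to a tested gene, in 9.21% of those of genes peaking between ZT0 and ZT4, where Arntl peaks, and in 10.4% between ZT20 and ZT24, the highest of the 6 windows. Among genes of at least 2-fold the shares from ZT0 onward were 4 of 26, 2 of 17, 4 of 24, 3 of 52, 0 of 20 and 6 of 9, so that the share in the window of Arntl (15.4%) was below that between ZT8 and ZT12 (16.7%).

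The repressors of Arntl peaked late in the light phase. Nr1d1 rose from 12.5, 14.2, 15.6 and 23.2 TPM at ZT0 to 139, 136 and 169 TPM in ZT8 replicates 2 to 4, and fell to 5.05, 5.37, 4.90 and 5.58 TPM at ZT20. The library labelled ZT8 replicate 1 gave 53.7 TPM, below each ZT4 library. Its peak was fitted at ZT8.15 ± 0.20 h with a 17.5-fold ratio, and that of Nr1d2 at ZT11.6 ± 0.27 h with a 6.88-fold ratio. Dbp, a PAR bZIP activator, had the widest range of the clock list. It measured 3.72, 3.14, 4.90 and 4.30 TPM at ZT0 and 161, 163, 146 and 116 TPM at ZT12, a 30.9-fold fitted ratio with a peak at ZT11.3 ± 0.24 h (adjusted p = 2.8e-13). The ZT8 libraries of Dbp held 19.97 TPM in replicate 1 and 117 to 157 TPM in the others, and no library outside ZT8 and ZT12 came above 49.0 TPM. The partners of Dbp peaked later, Hlf at ZT13.4 ± 0.31 h and Tef at ZT13.5 ± 0.22 h, while Nfil3, which represses the same sites, peaked at ZT21.97 ± 0.35 h. Dbp overlaps Sphk2 and Nr1d1 overlaps Thra on the opposite strand, and the counting is not stated to use strand, so reads of these pairs cannot be told apart.

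The negative limb filled the hours after dusk. Per1, Per3 and Per2 peaked in that order, at ZT12.8 ± 0.54 h, ZT13.3 ± 0.19 h and ZT14.8 ± 0.21 h, of which the first pair lay within their errors. Per2 measured 1.10, 0.644, 1.19 and 0.749 TPM at ZT4 and 25.1, 20.1, 25.8 and 22.4 TPM at ZT12, and the ZT16 libraries spread from 15.9 to 31.3 TPM, so ZT12 and ZT16 overlapped. Ciart, a repressor of CLOCK and BMAL1, peaked at ZT12.5 ± 0.50 h with 19.9 ± 3.91 TPM at ZT12 against 1.09 ± 0.64 TPM at ZT4 (SD, n = 4 each). Cry2 peaked at ZT13.8 ± 0.31 h and Cry1 later, at ZT19.0 ± 0.31 h. The level of Cry1 was 24.76, 25.67, 25.03 and 23.98 TPM at ZT20, above every other NRF library except 1 at ZT0 with 24.2 TPM, and 5.41 to 6.66 TPM in ZT8 replicates 2 to 4 with 13.1 TPM in replicate 1.

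Promoters of Ciart (GRCm38.p6, chr3:95882229-95882478, minus strand) and Per3 (GRCm38.p6, chr4:151044666-151044915, minus strand) are shown because they hold several clock motifs. Capitals mark E-boxes (CACGTG) in Ciart, and D-boxes (TTATGNAA) and a match to TNGGTCA in Per3.
Ciart: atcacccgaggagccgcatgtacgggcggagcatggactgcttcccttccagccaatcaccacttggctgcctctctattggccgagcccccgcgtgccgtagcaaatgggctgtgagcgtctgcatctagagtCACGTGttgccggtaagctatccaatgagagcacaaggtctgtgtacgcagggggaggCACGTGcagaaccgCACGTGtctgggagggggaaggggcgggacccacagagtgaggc
Per3: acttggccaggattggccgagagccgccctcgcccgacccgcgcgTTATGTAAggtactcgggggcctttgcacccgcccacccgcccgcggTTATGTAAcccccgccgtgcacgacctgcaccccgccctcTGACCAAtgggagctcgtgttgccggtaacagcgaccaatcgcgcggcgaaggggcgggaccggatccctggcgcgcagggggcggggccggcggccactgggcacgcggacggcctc
The E-box was found in 8.39% of all matched promoters and in 8.30% of those of genes peaking between ZT12 and ZT16, where Ciart peaks, with 10.95% between ZT8 and ZT12 as the highest of the 6 windows. For the D-box the share was 1.86% of all and 3.53% of those peaking between ZT12 and ZT16. These are matches of letters in a short window, on either strand, with no overlap between the motifs of one promoter shown here.

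**Figure D3:**
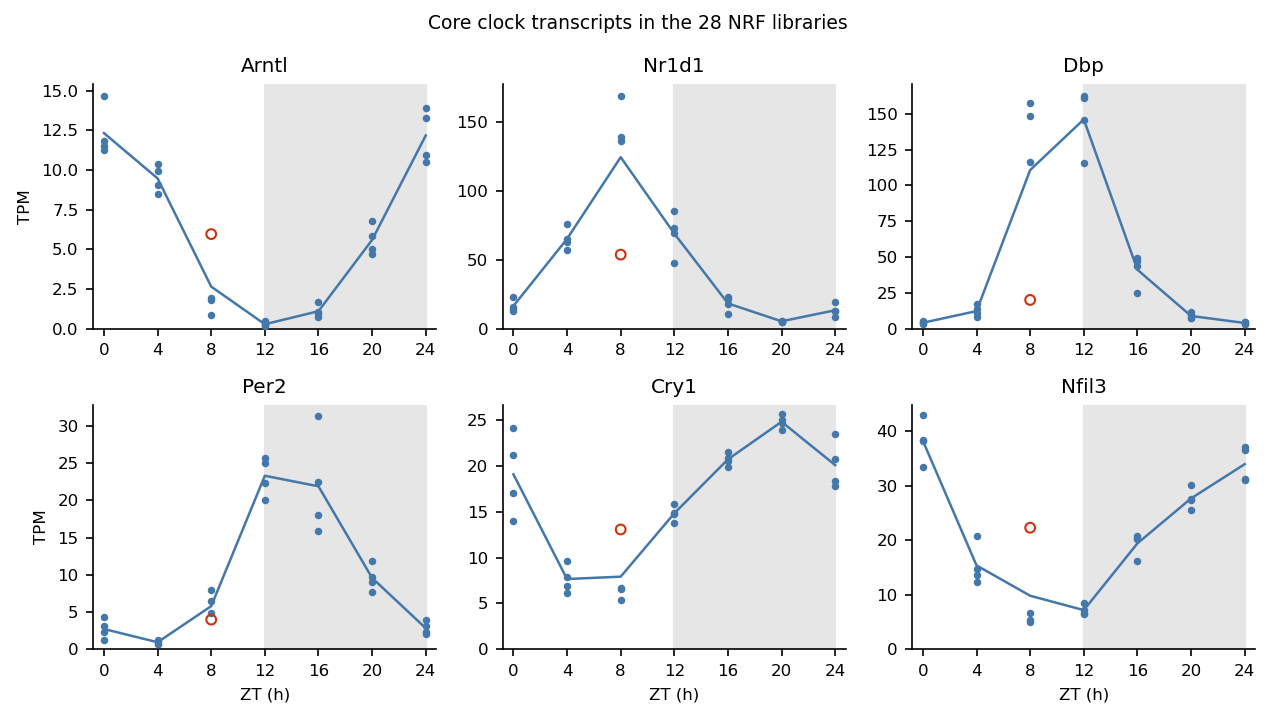
TPM of Arntl, Nr1d1, Dbp, Per2, Cry1 and Nfil3 in each NRF library by ZT, with the line through group means, the dark phase in grey and ZT8 replicate 1 as a red open circle. Arntl and Nfil3 were low around ZT8 to ZT12, where Nr1d1 and Dbp were high, and the marked library lay above the other ZT8 libraries for Arntl, Cry1 and Nfil3 and below them for Nr1d1 and Dbp.

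Genes peaking after lights on, from ZT0 to ZT4, were led after Arntl by Spon2, which encodes a secreted matrix protein, by the magnesium transporter Slc41a3, by Nppb, the B-type natriuretic peptide, and by Tmem171. Slc41a3 had the smallest p of these 5 genes. It measured 72.2, 64.2, 71.9 and 81.4 TPM at ZT0 and 11.2, 11.2, 11.8 and 17.4 TPM at ZT16 (7.12-fold, peak at ZT2.93 ± 0.16 h, adjusted p = 8.9e-16). Spon2 stood at 27.7, 19.3, 32.4 and 30.5 TPM at ZT0 and at 0.990, 1.77, 1.91 and 1.66 TPM at ZT12, without overlap, with a peak at ZT1.45 ± 0.34 h. Nppb measured 1130, 699, 747 and 831 TPM at ZT0, 769, 677, 1225 and 1161 TPM at ZT24 and 192, 156, 94.7 and 84.4 TPM at ZT12 (adjusted p = 3.3e-07). All dawn libraries were above all dusk libraries. The summed atrial markers were also highest on average at ZT0, at 2555 TPM, and ranged from 339.5 to 4042 TPM within that time. Their part in the rhythm of Nppb was not tested.

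Cholesterol genes gathered in these morning hours. Of the 19 tested members of cholesterol synthesis and uptake, 15 were rhythmic, against 37.3% of all genes. Of these, 10 peaked from ZT0 to ZT4, a window that held 16.7% of all rhythmic genes, and 4 from ZT4 to ZT8. The exception was Fdft1 at ZT11.7. Hmgcs1, the synthase at the head of the pathway, peaked at ZT1.2, Sqle, the squalene epoxidase, at ZT2.18, and Srebf2, the transcription factor of the pathway, at ZT2.44. These were small rhythms at low levels, with a median amplitude of 0.27 (log2) over the 15, and 18 members were called under median-of-ratios scaling, against 46.5% of all genes, with 12 peaks between ZT0 and ZT4.

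Between ZT4 and ZT8 the leading genes included regulators of fuel use. Pdk4, the kinase that shuts pyruvate out of mitochondrial oxidation, averaged highest at ZT4 and lowest at ZT20, with a fitted peak at ZT5.15 ± 0.51 h and a 6.31-fold ratio (adjusted p = 2.9e-05). Its ZT4 libraries disagreed, at 230.3, 106, 1273 and 974 TPM, while those of ZT20 were all between 66.0 and 78.6 TPM. Angptl4, an inhibitor of lipoprotein lipase, split in the same way at ZT4, with 15.4, 3.71, 45.5 and 54.3 TPM. So did Ucp3, a mitochondrial carrier, with 32.1, 24.2, 104 and 127 TPM at ZT4 and 10.7 to 18.9 TPM at ZT16. Replicates 1 and 2 of ZT4 were thus low and replicates 3 and 4 high for these 3 genes, and replicate 1 of ZT4 is the library that other rhythmic genes read 3.4 h early. Scd4, a stearoyl-CoA desaturase, peaked at ZT5.98 ± 0.49 h with 16.1 ± 8.42 TPM at ZT8 and 2.28 ± 0.39 TPM at ZT16 (SD, n = 4 each).

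Most other genes of fatty acid oxidation did not pass the test. Of its 27 tested genes, 9 (33.3%, below the 37.3% of all genes) were rhythmic, and 5 of these peaked from ZT4 to ZT8. Besides Ucp3 they were the thioesterases Acot1 (ZT5.67) and Acot2 (ZT7.06), the peroxisomal enzyme Ehhadh (ZT5.91) and Cpt1a (ZT7.74), which loads fatty acids onto carnitine in its liver form. Cpt1b, the muscle form, did not pass the test, nor did the carrier Slc25a20, the acyl-CoA dehydrogenases Acadl, Acadm, Acadvl and Acads, or the trifunctional protein genes Hadha and Hadhb. In lipid uptake and lipolysis 12 of 20 genes (60%) were rhythmic and their peaks were spread over day and night, with Plin5 and Cd36 at ZT4.1, the lipase Lipe at ZT7.6, the transporter Slc27a1 at ZT10.3, Dgat2 at ZT14.7, G0s2, an inhibitor of lipolysis, at ZT18.5 and Lpin1 at ZT22.4. Adipocyte markers summed to 2.96 to 56.3 TPM per library and averaged highest at ZT12 (25.8 TPM). Of the 4 adipocyte markers tested 1 was rhythmic, Cidec, a protein of the lipid droplet (amplitude 0.57, peak at ZT12.5, adjusted p = 0.036). Their part in these rhythms was not tested.

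Matrix genes peaked in the same hours. Of 27 collagen genes, 21 were rhythmic, against 37.3% of all genes. Of these, 10 peaked from ZT4 to ZT8 and 6 from ZT8 to ZT12, windows that held 20.2% and 23.1% of all rhythmic genes. Col5a3 measured 16.16, 22.03, 23.48 and 32.33 TPM at ZT4 and 4.30, 4.45, 5.34 and 5.21 TPM at ZT16 (4.51-fold, peak at ZT3.79 ± 0.23 h, adjusted p = 5.3e-12), and its lowest ZT4 library was above every library of ZT12, ZT16 and ZT20. Among the fibrillar collagens, Col3a1 peaked at ZT5.54 ± 0.51 h and Col1a1 at ZT6.23, and basement membrane Col4a1 and Col4a2 peaked at ZT4.0 and ZT4.2. The fibrillin gene Fbn1 stood at 38.1 ± 11.8 TPM at ZT4 and 11.8 ± 2.68 TPM at ZT16. The sum of fibroblast markers, Col1a1 and Col1a2 included, ranged from 507 to 833 TPM over the libraries and averaged highest at ZT12. Of 6 fibroblast markers 4 were rhythmic, namely Col1a1, Col1a2, Dcn and Lum, and so were 3 of 6 markers of pericytes and smooth muscle. Their part in the collagen rhythms was not tested.

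Growth-related genes with peaks in the light phase included ribosome biogenesis, with 15 of 24 rhythmic against 37.3% of all genes, 9 of them from ZT4 to ZT8, all at low amplitude (median 0.14). DNA replication had 8 of 18 (44.4%), near the share of all genes, and these were Cdk1, Lig1 and 6 subunits of the MCM helicase, with peaks from ZT5.7 (Cdk1) to ZT8.8 (Lig1). Mki67, Top2a, Ccna2 and Pcna were among the 10 that did not pass. Mcm5 and Mcm3 lost the call without replicate 2, at amplitudes 0.828 and 0.942 times the value with all libraries. Mcm3 also lost it without replicate 4, at 0.739 times. RNA-binding proteins gave 17 of 24 (70.8%). Cirbp, a cold-inducible protein, measured 39.7, 57.4, 55.8 and 62.1 TPM at ZT8 and 18.3, 21.9, 21.2 and 16.7 TPM at ZT20, with a peak at ZT8.21 ± 0.37 h (adjusted p = 9.0e-08), and its relative Rbm3 peaked at ZT8.8. The groups at ZT8 and ZT20 did not overlap. Splicing factors were divided, with Srsf5 at ZT6.47 and Srsf3 at ZT22.2.

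Of 20 potassium and sodium channel and connexin genes, 10 were rhythmic, against 37.3% of all genes, and 8 of the 10 peaked in the light phase, against 60.02% of all rhythmic genes. With median-of-ratios scaling it was 8 of 12, against 49.85%. Kcne1, an accessory subunit of the slow delayed rectifier, measured 12.3, 15.7, 9.92 and 12.3 TPM at ZT4 and 4.05, 4.18, 4.33 and 5.43 TPM at ZT16 (2.34-fold, peak at ZT4.41 ± 0.33 h, adjusted p = 2.1e-08). Its pore partner Kcnq1 peaked at ZT5.9, the transient outward channel Kcnd2 at ZT8.1, Scn4b at ZT10.0 ± 0.65 h and Kcnh2 at ZT10.9. Kcnip2, Kcnd3, Kcnj2 and Kcna5 did not pass the test. In calcium handling and adrenergic signalling 8 of 23 (34.8%) were rhythmic, near the share of all genes. The sodium-calcium exchanger Slc8a1 peaked at ZT3.75 ± 0.73 h and the phosphodiesterase Pde3a at ZT4.30 ± 0.40 h, whereas Ryr2, Atp2a2 and Cacna1c did not pass.

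**Figure D4:**
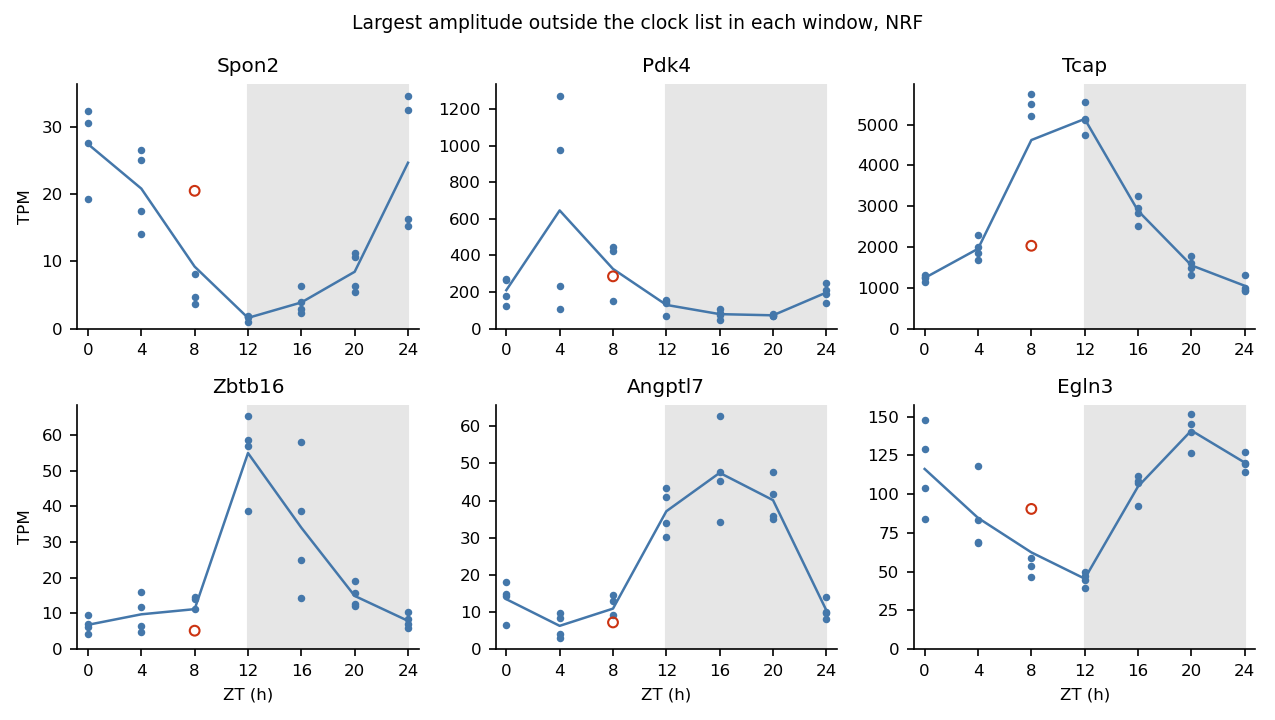
TPM of 1 leading gene of each 4 h window (Spon2, Pdk4, Tcap, Zbtb16, Angptl7 and Egln3) in each NRF library by ZT, with the line through group means, the dark phase in grey and ZT8 replicate 1 as a red open circle. The high groups move from ZT0 for Spon2 to ZT20 for Egln3, and the 4 ZT4 libraries of Pdk4 spread from 106 to 1273 TPM.

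Late in the light phase, from ZT8 to ZT12, the top genes after the clock were Tcap and Cyp2e1. Tcap encodes telethonin, which caps titin at the Z-disc, and it carried by far the widest rhythm of the sarcomere. It measured 1272, 1139, 1313 and 1236 TPM at ZT0, 5221, 5497 and 5746 TPM in ZT8 replicates 2 to 4, and 5566, 5146, 5104 and 4754 TPM at ZT12. The library labelled ZT8 replicate 1 held 2030 TPM. All ZT12 libraries lay above those of ZT0, ZT4, ZT16, ZT20 and ZT24 (4.64-fold, peak at ZT11.1 ± 0.28 h, adjusted p = 1.3e-11). Of the 23 sarcomere genes tested, 7 (30.4%) were rhythmic, below the 37.3% of all genes, and those other than Tcap did so at amplitudes from 0.12 (Ldb3) to 0.28 (Myh7, the slow myosin heavy chain, whose call was lost without replicate 2, 3 or 4 at amplitudes 1.09, 1.06 and 1.00 times the value with all libraries). Titin, cardiac actin (Actc1), the troponins and both ventricular light chains did not pass the test.

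Of 19 insulin- and FOXO-responsive genes tested, 13 were rhythmic, against 37.3% of all genes, 7 from ZT8 to ZT12 and 4 from ZT12 to ZT16. Pik3ip1, an inhibitor of PI3 kinase, peaked at ZT11.7 ± 0.56 h with a 2.23-fold ratio (adjusted p = 3.7e-06). The muscle ubiquitin ligase Fbxo32 peaked at ZT9.4, the translation repressor Eif4ebp1 at ZT10.9 ± 0.58 h, Foxo3 at ZT12.9 and Pik3r1 at ZT14.2. Of 27 genes of glucose use 10 (37.0%) were rhythmic, close to the share of all genes, and 7 of these peaked from ZT8 to ZT12. With median-of-ratios scaling 14 of the 27 were called, against 46.5% of all genes, and only 3 fell in that window. Among the members were the phosphofructokinase regulator Pfkfb1 (7.39 ± 1.73 TPM at ZT12 and 3.19 ± 0.47 at ZT0, SD, n = 4 each) and the transporters Slc2a1 and Slc2a4, at ZT10.8 and ZT11.8. Gpi1, Pfkm, Aldoa, Gapdh, Eno3 and Pkm, enzymes of glycolysis, did not pass. Autophagy and lysosome genes gave 9 of 22 (40.9%). Sqstm1, a receptor for cargo of autophagy, peaked at ZT12.4 ± 0.48 h with 273 ± 11.2 TPM at ZT12 and 195 ± 14.7 TPM at ZT0.

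Of 15 glucocorticoid-responsive genes, 12 were rhythmic, against 37.3% of all genes, with a median amplitude of 0.69 (log2) over the 12. Of these, 8 peaked from ZT12 to ZT16, which held 17.01% of all rhythmic genes, and Per1 was among them. Zbtb16, a zinc finger transcription factor, measured 57.0, 38.8, 58.7 and 65.4 TPM at ZT12 and 9.54, 4.32, 6.24 and 7.12 TPM at ZT0 (5.77-fold, peak at ZT13.9 ± 0.49 h, adjusted p = 1.1e-06). The groups did not overlap, although ZT16 spread from 14.4 to 58.0 TPM. Tsc22d3, also called Gilz, stood at 112 ± 13.9 TPM at ZT12 and 31.97 ± 5.203 TPM at ZT4. The co-chaperone Fkbp5 peaked at ZT15.7, and the metallothioneins Mt2 and Mt1, which bind zinc, at ZT12.8 and ZT14.1. Cdkn1a, an inhibitor of the cell cycle, was the member with a peak at dawn (ZT0.4), and Sgk1, Dusp1 and Errfi1 did not pass. Of 11 Kruppel-like factors, 9 (81.8%) were rhythmic, against 37.3% of all genes. Of these, 1 peaked from ZT4 to ZT8, 1 from ZT8 to ZT12, 5 from ZT12 to ZT16 and 2 from ZT16 to ZT20. With median-of-ratios scaling 10 of the 11 were rhythmic, against 46.5% of all genes, 5 and 4 of them in the last 2 of these windows. Klf9 (129.5 ± 11.7 TPM at ZT12, 65.9 ± 11.1 at ZT0) peaked at ZT11.9 ± 0.52 h and Klf15, a metabolic regulator in heart muscle, at ZT12.8 ± 0.83 h.

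**Figure D5:**
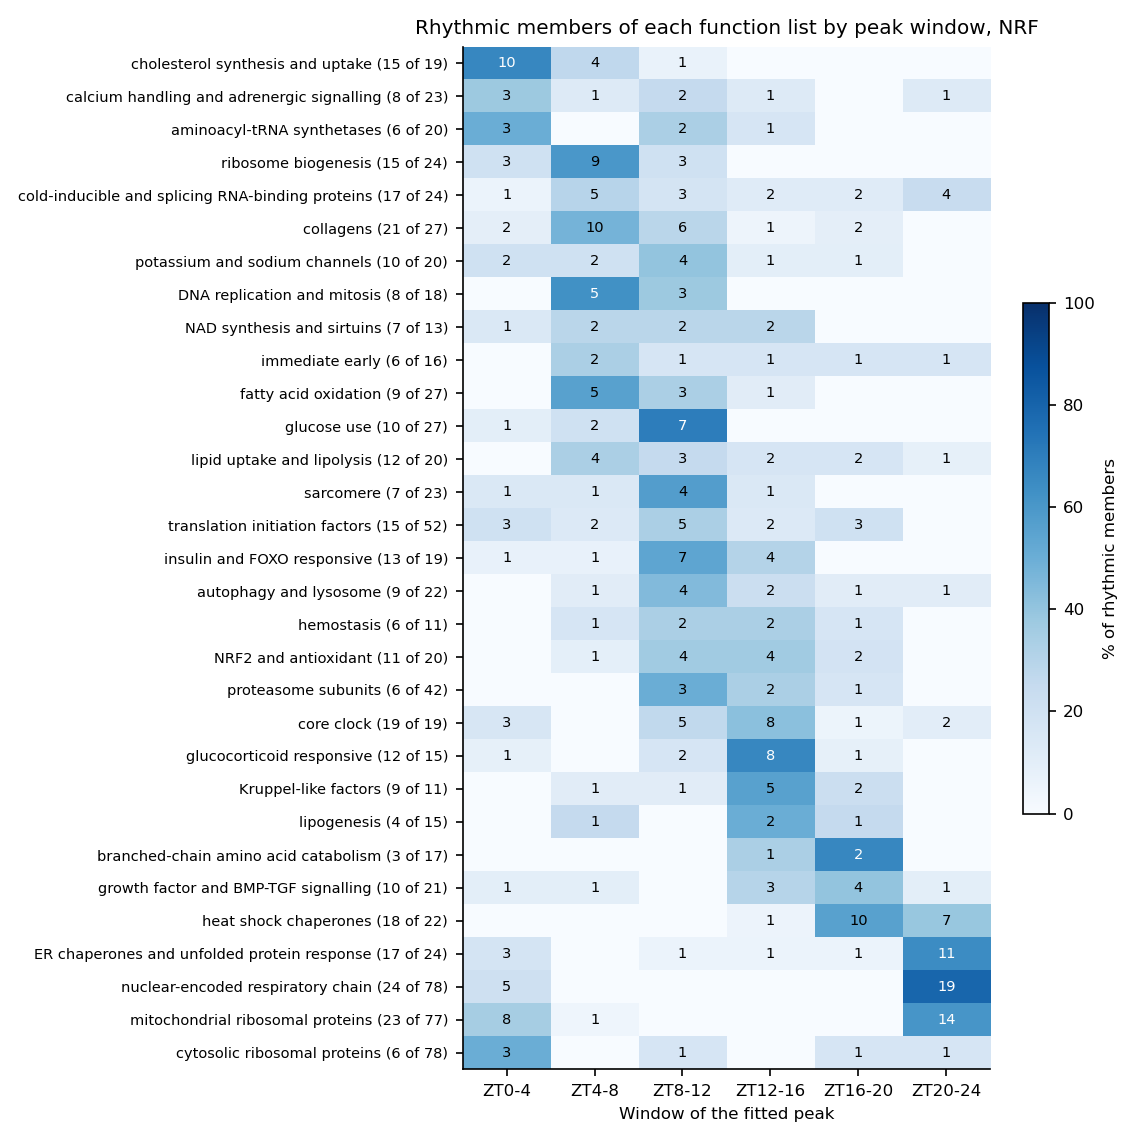
Rhythmic members of 31 gene lists by the 4 h window of their fitted peak in the NRF heart. The number in a cell counts members and the colour gives their percent of the rhythmic members of the list. Lists are ordered by circular mean peak. Among the counts are 10 cholesterol genes from ZT0 to ZT4. From ZT20 to ZT24 they include 11 genes of the list of ER chaperones and unfolded protein response and 19 respiratory chain genes.

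Members of the NAD, antioxidant, immediate early, growth factor and hemostasis lists peaked by day and by night. Nampt, the rate-limiting enzyme of NAD salvage, stood at 114 ± 1.51 TPM at ZT16 and 69.2 ± 3.78 TPM at ZT4 (peak at ZT15.6 ± 0.39 h, adjusted p = 1.3e-07), while Nmnat3, an enzyme of NAD synthesis, peaked at ZT7.69 ± 0.57 h. Of 13 NAD genes 7 were rhythmic, against 37.3% of all genes, 5 of them with peaks in the light phase. In the NRF2 and antioxidant list 11 of 20 were, 5 with peaks in the light phase, and the widest rhythm was that of Gsta3, a glutathione transferase, which rose from 5.49 ± 0.25 TPM at ZT4 to 21.2 ± 1.88 TPM at ZT16 and peaked at ZT17.1 ± 0.23 h. Immediate early genes gave 6 of 16 (37.5%), the share of all genes, 3 with peaks in the light phase. Among them was Ier3 at ZT15.3 ± 0.29 h (123 ± 12.9 TPM at ZT16, 41.2 ± 2.84 at ZT4). Fos, Jun and Egr1 did not pass. Bmp4 and Bmp6, ligands of the BMP pathway, peaked at ZT14.4 ± 0.46 h and ZT16.1 ± 0.49 h, and their inhibitory Smads Smad7 and Smad6 at ZT13.8 and ZT16.6. The growth factor list as a whole had 10 of 21 (47.6%) rhythmic. In hemostasis 6 of 11 (54.5%) were rhythmic, and thrombomodulin (Thbd) peaked at ZT17.9 ± 0.48 h.

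From ZT16 to ZT20 the widest rhythm was that of Angptl7, a secreted angiopoietin-like protein. It measured 34.2, 62.7, 45.3 and 47.7 TPM at ZT16 and 4.02, 9.76, 8.40 and 2.85 TPM at ZT4 (8.21-fold, peak at ZT16.2 ± 0.27 h, adjusted p = 3.1e-10). The 4 libraries of ZT4 lay below all of ZT12, ZT16 and ZT20. Angptl7 lies within Mtor on the opposite strand, so unstranded reads could be shared. Cyp1a1, a target of the aryl hydrocarbon receptor, was uneven at ZT16. It measured 165 and 131 TPM in ZT16 replicates 2 and 4 and 4.28 and 5.62 TPM in the others (adjusted p = 0.019), and the call was lost without replicate 2, without replicate 3 and without replicate 4, where the amplitude was 0.865, 1.05 and 0.853 times the value with all libraries. Mir6999 also passed the limma test (adjusted p = 0.0091), yet its short gene model lies inside Dgkz on the same strand, whose reads it would share. It lost the call without replicate 2 and without replicate 4, at amplitudes 0.734 and 0.619 times the value with all libraries.

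The rhythmic heat shock chaperones peaked in the feeding phase. Of 22 heat shock chaperones, 18 were rhythmic, against 37.3% of all genes. Of these, 1 peaked from ZT12 to ZT16, 10 from ZT16 to ZT20 and 7 from ZT20 to ZT24, and the last 2 windows held 10.7% and 12.3% of all rhythmic genes. Hsp90aa1, the inducible HSP90, measured 147, 141, 108 and 117 TPM at ZT20 and 63.6, 50.4, 49.4 and 55.7 TPM at ZT12, without overlap, and peaked at ZT19.4 ± 0.54 h (2.29-fold, adjusted p = 5.4e-05). Hspa8, the constitutive HSP70, peaked at ZT18.9, Dnaja1 at ZT18.0 and Hsph1, which exchanges the nucleotide of HSP70, at ZT20.4 ± 0.45 h. Hspa1a and Hspa1b both peaked at ZT16.6, but they are near-identical copies whose reads can be split between them. The library labelled ZT8 replicate 1 held 115 TPM of Hsp90aa1, against 47.2 to 53.1 TPM in the other ZT8 libraries. Without that library 21 of the 22 genes were rhythmic, against 42.9% of all genes. Of the 21, 13 peaked from ZT16 to ZT20 and 8 from ZT20 to ZT24.

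Chaperones of the endoplasmic reticulum (ER) peaked near the end of the night. Of 24 tested genes of the list of ER chaperones and unfolded protein response, 17 were rhythmic, against 37.3% of all genes. Of these, 11 peaked from ZT20 to ZT24, which held 12.3% of all rhythmic genes, and 3 just after dawn. Among the 11 were the HSP70 of the ER, Hspa5 (ZT23.9), its partners Hyou1 (ZT23.1) and Sdf2l1 (ZT23.2 ± 0.59 h), Hsp90b1 (ZT22.8), the disulfide isomerases Pdia3, Pdia4 and Pdia6, Manf, and Xbp1, a transcription factor of the unfolded protein response. Others of the list peaked at other hours. Herpud1, which works in degradation of ER proteins, stood at 265 ± 16.2 TPM at ZT12 and 110.1 ± 11.9 TPM at ZT4 and peaked at ZT14.2 ± 0.30 h, Chac1, which breaks down glutathione, at ZT9.91 ± 0.85 h, and Ddit3 at ZT16.5. Atf4, Trib3 and Asns did not pass the test.

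Promoters of Hspa5 (GRCm38.p6, chr2:34771840-34772089, plus strand) and Hsp90b1 (GRCm38.p6, chr10:86705445-86705694, minus strand) are shown because ER chaperone genes are known to be driven through the ER stress element. Capitals mark matches to the ER stress element on either strand and, in Hsp90b1 nearest the start, to the sterol element TCACNCCAC.
Hspa5: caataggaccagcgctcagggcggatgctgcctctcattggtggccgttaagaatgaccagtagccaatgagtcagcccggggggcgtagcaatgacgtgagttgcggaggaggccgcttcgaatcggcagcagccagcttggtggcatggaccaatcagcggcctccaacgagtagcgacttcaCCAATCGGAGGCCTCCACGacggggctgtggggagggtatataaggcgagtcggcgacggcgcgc
Hsp90b1: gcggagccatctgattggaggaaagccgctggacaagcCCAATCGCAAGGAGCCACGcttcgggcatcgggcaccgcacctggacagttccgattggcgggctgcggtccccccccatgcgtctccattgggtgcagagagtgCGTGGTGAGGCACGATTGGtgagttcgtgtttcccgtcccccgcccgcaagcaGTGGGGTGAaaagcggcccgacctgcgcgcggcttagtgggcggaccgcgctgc
The ER stress element was found in 13 of 9910 matched promoters (0.131%) and in 6 of 462 (1.30%) of those of genes peaking between ZT20 and ZT24.

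Outside the chaperones the end of the night was led by Nfil3, Egln3 and Rtn4r. Nfil3 measured 43.0, 33.5, 38.4 and 38.3 TPM at ZT0, 37.1, 36.6, 31.2 and 31.0 TPM at ZT24 and 6.43, 6.65, 8.40 and 7.15 TPM at ZT12 (4.87-fold, adjusted p = 2.7e-09). Its ZT8 libraries were at 4.94 to 6.70 TPM except for 22.3 TPM in replicate 1. Egln3, a prolyl hydroxylase of hypoxia-inducible factors, measured 145, 152, 127 and 140.0 TPM at ZT20 and 47.4, 39.6, 49.8 and 44.8 TPM at ZT12 (2.70-fold, peak at ZT21.4 ± 0.42 h, adjusted p = 1.5e-07), and those groups did not overlap. Rtn4r was called at an adjusted p of 0.0068 in the limma test but not without replicate 2 or replicate 3. There its amplitude was 0.945 and 0.825 times the value with all libraries.

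With an equal TPM sum, most genes of the energy-producing and protein-synthesising machinery did not pass the test. Among nuclear-encoded subunits of the respiratory chain 24 of 78 (30.8%) were rhythmic, 19 with peaks from ZT20 to ZT24 and 5 just after dawn, at a median amplitude of 0.13 (log2). Median-of-ratios scaling called 38, of which 37 peaked from ZT20 to ZT24. None of the 13 mitochondrially encoded genes tested passed under either scaling. Cytosolic ribosomal proteins gave 6 of 78 (7.69%), and 26 under median-of-ratios scaling with 17 from ZT20 to ZT24. For mitochondrial ribosomal proteins it was 23 of 77 and then 36 of 77. Proteasome subunits gave 6 of 42, translation initiation factors 15 of 52, aminoacyl-tRNA synthetases 6 of 20, branched-chain amino acid catabolism 3 of 17 and lipogenesis 4 of 15, each below the 37.3% of all genes tested with an equal TPM sum. Under median-of-ratios scaling, where 46.5% of all genes were called, aminoacyl-tRNA synthetases gave 10 of 20 and lipogenesis 7 of 15, and these lists, the respiratory chain and the mitochondrial ribosomal proteins were no longer below the share of all genes.

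No gene was called with a rhythm of 12 h. In a limma test of 12 h terms added to the 24 h fit, 0% of the 13878 genes passed, while 804 had an unadjusted p under 0.05. The count was 10 with median-of-ratios scaling, 7 with voom weights on the recovered reads, 5 with the values as deposited and 11 without ZT8 replicate 1. The lowest adjusted p was 0.086, shared by Hlf, Bhlhe41, Arrdc4, Nmrk2 and Cish, whose 12 h amplitudes ran from 0.24 (Arrdc4) to 0.33 (Nmrk2).

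The same genes were set against the DRF heart by a limma test of the interaction of regimen with the 24 h terms over all 56 libraries. The rhythm differed for 3831 of 13878 genes (27.6%), for 2239 genes without replicate 2 of every time and for 1836 without replicate 3. Of the 5173 genes rhythmic under NRF it differed for 2613 (50.5%). By window of the NRF peak the share was 37.5, 32.7, 67.6, 54.6, 48.9 and 61.2% from ZT0 to ZT4 onward. These genes were chosen for their rhythm in the NRF libraries, which also enter the test. That choice can raise their shares, which are therefore not to be compared with 27.6%. Among genes rhythmic under NRF with a mean of at least 5 TPM, the 5 with the smallest p were Sqstm1, Slc27a1, Mt1, Tfrc and Slc25a34. Sqstm1 peaked at ZT12.4 under NRF and at ZT23.3 under DRF (adjusted p = 4.8e-16), Slc27a1 at ZT10.3 and ZT1.81, and the transferrin receptor Tfrc, which imports iron, at ZT1.10 and ZT12.0. Each of these pairs of peaks lay more than 8 h apart. Of the core clock, 18 of 19 genes differed. Arntl had an amplitude of 1.71 under NRF and 1.01 under DRF, with peaks at ZT0.86 and ZT23.2 (adjusted p = 3.2e-07), and Per2 1.80 and 1.17, with peaks at ZT14.8 and ZT13.3 (adjusted p = 4.8e-05).

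This test was passed by 27.6% of all genes and by 18 of 24 genes of the list of ER chaperones and unfolded protein response. It was also passed by 16 of 27 fatty acid oxidation genes, 14 of 22 heat shock chaperones and 12 of 19 cholesterol genes. The counts were lower for collagens (5 of 27), ribosome biogenesis (4 of 24) and DNA replication (1 of 18). For the respiratory chain it was 1 of 78 and for cytosolic ribosomal proteins 0 of 78. Pdk4 peaked at ZT5.15 under NRF and at ZT21.5 under DRF (adjusted p = 2.8e-10), while Col3a1 peaked at ZT5.54 ± 0.51 h and ZT5.64 at amplitudes of 0.60 under both (adjusted p = 0.996). Hsph1, with an amplitude of 0.60 under NRF, had 0.22 under DRF and did not pass the rhythm test there (adjusted p = 0.06), and the difference did (adjusted p = 1.2e-06).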

How the data were processed

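PolyA RNA-seq of mouse heart was analysed in 56 libraries, of which the 28 NRF libraries carry the results. Per the labels, reads were processed with HISAT2 2.0.5 and featureCounts 1.5.0-p3 on mm10; annotation release and strand use are not given in the sources used here. The authors deposited values named TPM which are another quantity, a library constant times log2(1 + scaled reads) divided by exon length (unit: other). Whole reads were recovered from their steps with union exon lengths (GENCODE M21, GRCm38) and were within 0.1 of a whole read for 99.9996% of values. A length was searched for 832 of 22864 genes, 797 of them on chromosomes 17 to 19, and Atp5b stayed unresolved and was left out. Linear TPM (reads per base, equal sum in each library) were then computed. The design had assumed linear TPM, and its tests were kept.

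The 13878 genes averaging 1 TPM or more across the 56 libraries entered the tests on log2(TPM + 1), a scale that understates changes near 1 TPM, with limma 3.58.1 in R 4.3.3 (F test of 24 h cosine and sine, eBayes with trend, threshold 0.05 after Benjamini-Hochberg adjustment). MetaCycle, which the study used, was not installed, and ZT0 and ZT24 count as 1 phase. Named genes were the clock list and, among called genes of at least 5 TPM, the 5 of largest amplitude per window. To these were added the 2 called members of largest amplitude per list. At a mean of at least 5 TPM, the 5 genes of smallest adjusted 12 h p were added too. The last 5 had the smallest adjusted p of a difference from DRF, among genes rhythmic under NRF at that level. Other list members are named by role. Members and gene lists were chosen with earlier results of these data known. Promoters are the 250 bases before the first RefSeq start. No molecular identifiers are stated, so intervals based on reads would cover counting error only. The fits were tested on simulated data, in which 200 of 13878 genes were given a rhythm. Of those with a log2 amplitude of 0.2, 63% were found, and of those with 0.5, 98%. A gene that did not pass can thus still hold a shallow rhythm. Some genes of the rules above are not reported here.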

Additional observations from a re-analysis of the deposited data

Results flagged for a closer look

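Within the 28 NRF libraries, the 4 replicates of each time were searched for a single library far from the other 3 (Dixon's test at the 95% level) for 39 of the named genes. Of 273 groups, 20 (7.33%) held such a library, and chance alone gives about 1 in 20. The library labelled ZT8 replicate 1 was the distant one in 5 of them, with 2030 TPM of Tcap, 13.1 TPM of Cry1, 22.3 TPM of Nfil3, 19.7 TPM of Rtn4r and 20.4 TPM of Hsph1. Tcap was lower in it than in the other ZT8 libraries and the other 4 genes were higher.

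Among clock genes, Arntl stood high in ZT0 replicate 1 (14.7 TPM), Per1 in ZT12 replicate 3 (49.97 TPM), and Nfil3 low in ZT16 replicate 3 (16.2 TPM) and Npas2 low in ZT12 replicate 4 (0.551 TPM). Genes of fuel use and transport included Slc41a3, high in ZT16 replicate 4 (17.4 TPM), Angptl4, high in ZT20 replicate 3 (4.51 TPM), and Scd4, low in ZT0 replicate 1 (5.95 TPM). The cytochrome gene Cyp2e1 was apart in ZT4 replicate 3 (12.9 TPM), ZT8 replicate 4 (21.1 TPM) and ZT20 replicate 2 (6.80 TPM), and Cyp1a1 in ZT20 replicate 3 (13.9 TPM). The remaining libraries were ZT24 replicate 2 for Gsta3 (12.8 TPM), ZT0 replicate 3 (27.2 TPM) and ZT16 replicate 4 (11.9 TPM) for Rtn4r, and ZT16 replicate 2 for Sdf2l1 (24.2 TPM).

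The limma interaction test over 56 libraries compared the 24 h rhythm with that of the DRF heart. Among genes rhythmic under NRF with a mean of at least 5 TPM, 5 genes had the smallest p in this limma test. They were Sqstm1 (adjusted p = 4.779e-16), Slc27a1 (adjusted p = 2.909e-14), Mt1 (adjusted p = 4.225e-13), Tfrc (adjusted p = 7.975e-13) and Slc25a34 (adjusted p = 9.132e-13). Mt1, a metallothionein, peaked at ZT14.1 under NRF and ZT20.4 under DRF, and Slc25a34, a mitochondrial carrier, at ZT9.96 and ZT22.8.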

How the results depend on the processing

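Of the 94 genes named and called, 94 stayed called without replicate 1, 85 without replicate 2, 89 without replicate 3, 87 without replicate 4, 93 without ZT8 replicate 1 and 94 with median-of-ratios scaling, and 0 reversed. Leaving out 1 replicate number at a time gave 2835 (without replicate 2) to 5275 (without replicate 1) rhythmic genes, 3167 without replicate 3 and 3844 without replicate 4, and from ZT0 on the windows held 554 to 657, 371 to 1464, 593 to 1542, 512 to 846, 225 to 696 and 298 to 675 genes, with 1836 to 3280 genes whose rhythm differed from DRF. Median-of-ratios scaling gave 948 genes from ZT16 to ZT20, 1240 from ZT20 to ZT24 and 10 with a 12 h component. The values as deposited gave 5 genes with a 12 h component, and voom weights gave 7, with 1049 genes from ZT20 to ZT24. Without ZT8 replicate 1, 11 genes had a 12 h component, 742 peaked from ZT20 to ZT24 and 4272 differed in rhythm from DRF. Leaving out ZT4 replicate 1 as well, which was chosen after seeing the data, gave 9 such genes, 6387 rhythmic genes, 890 from ZT0 to ZT4, 1863 from ZT4 to ZT8 and 1658 from ZT8 to ZT12. Without ZT24 the window ZT8 to ZT12 held 796 genes, and without ZT12 there were 3317 rhythmic genes. At an adjusted p under 0.01, 3138 genes were rhythmic, with 562, 580, 723, 559, 333 and 381 by window. The causes were not tested, apart from the smaller number of libraries or the stricter threshold that some settings set by construction. A pseudocount of 0.1, no filter on low values and a filter at 5 TPM left these counts within 1.5 times. With the replicate number as a block 5079 genes were rhythmic, and 28 of 84 same-numbered pairs of libraries had correlated deviations over 0.1 (median r 0.059, against -0.019 for other numbers), with 15 of 28 libraries closest to their own number. The numbers were not used to pair the libraries in the main fit. Whether libraries of the same number share a source or handling was not tested. Depth of 30.1 M reads or more per library leaves low genes near 1 TPM as the least precise.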
